A study of Homo sapiens with 4 samples.

Results

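The S100 and annexin genes were taken as all symbols that begin with S100 or ANXA, without the numbered pseudogenes, which gave 36 of the 26255 gene symbols measured. They were 21 S100 genes, 13 annexin genes, and 2 genes of binding partners that share the prefix, ANXA2R and S100PBP. RNA had been sequenced from MIA PaCa-2 and PSN-1, both human cell lines from pancreatic tumours and labelled epithelial. Each line had been transfected with a mimic of the microRNA miR-4800-3p, labelled as overexpression, or with a control oligonucleotide of scrambled sequence. These 4 groups hold 1 library apiece, so a comparison of mimic and scramble within a line has no replicate. No source used here gives the dose or the time after transfection. The comparison of mimic and scramble was meant to find targets of the microRNA, and the title points to metastasis. Levels are FPKM, fragments scaled for transcript length and for the size of the library, which allows genes of different length to be compared.

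S100 proteins are small calcium-binding proteins with EF-hand motifs that work mostly as dimers. On binding calcium they expose a surface that grips target proteins, and some are also secreted and act on receptors such as AGER (RAGE). Annexins bind acidic phospholipids in the presence of calcium through repeated annexin domains and take part in membrane repair, vesicle traffic and the organisation of the membrane skeleton. The families meet directly: S100A10 pairs with annexin A2 and S100A11 with annexin A1. S100A4, S100A6, S100P, ANXA1 and ANXA2 have long been studied in pancreatic cancer, where S100P is a well-known marker of tumour cells.

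The microRNA is shown first, because the mimic delivers this sequence to the cells. The mature sequence from RefSeq (GRCh38.p14, chromosome 4, 2250091 to 2250109, minus strand) is printed with its seed, bases 2 to 8, in capitals. The only match to a full seed site found in the searched transcripts of these genes was in the coding sequence of ANXA11 and is printed below it, with the 7 matching bases in capitals (GENCODE transcript ENST00000438331.5, GRCh38 chromosome 10, 80166977 to 80166983, minus strand).
miR-4800-3p: cAUCCGUCcgucuguccac
ANXA11 coding site: aaggcttcggGACGGATgagcaggcca

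None of the 35 members with an annotated 3' UTR held the 8mer GACGGATA or the 7-mers GACGGAT and ACGGATA in the longest one (0 of 35). Of all 18166 genes searched in the same way, 396 (2.18%) did. S100A7L2 was not searched. The 6 bases ACGGAT were not found in these 35 3' UTRs either, while 5.35% of all genes had them. In the coding sequence, 1 of 35 members had a site (ANXA11), against 3.95% of all genes. ANXA11, a phospholipid-binding annexin that takes part in cytokinesis and vesicle transport, was at 94.9 FPKM in the MIA PaCa-2 mimic library and 117 in its scramble, and at 86.3 and 119 FPKM in the PSN-1 pair. Both mimic libraries lay below both scramble libraries. Its mean log2 change over both lines was -0.38 (SE 0.106), which was not called (adjusted p = 0.356 in limma). The annotation used for this search is GRCh38, while the build named for the files is hg19, and the 3' UTRs these cells use were not measured.

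Of the 36 genes, 19 had a mean of at least 1 FPKM in both lines, 3 in PSN-1 alone (S100P, ANXA10 and ANXA3), 1 in MIA PaCa-2 alone (S100A1), and 13 in neither. Just inside that limit in MIA PaCa-2 were S100A1 (mean 1.02 FPKM) and ANXA9 (1.03), and in PSN-1 ANXA2R (1.13). The nearest below it were S100A1 in PSN-1 (0.723) and, well short of the limit, S100A14 in MIA PaCa-2 (0.210). Of the 13 genes under 1 FPKM, 6 were listed at 0 in all 4 libraries and no value exceeded 0.803 FPKM. Steps of whole fragments put 1 FPKM at an estimated 12.6 to 15.9 fragments per kb, so the short S100 transcripts rest on few fragments when their level is low.

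The S100 family as a whole summed to 2386 and 2021 FPKM in the MIA PaCa-2 mimic and scramble libraries, and to 2539 and 2844 FPKM in the PSN-1 mimic and scramble libraries. These sums were 0.408% to 0.582% of all FPKM. In each library 4 genes held 88.5% to 95.4% of the S100 sum. S100A11 led in MIA PaCa-2 (35.6% with the mimic and 33.7% with the scramble), and S100A4 led in PSN-1 (47.5% and 49.9%). The annexin sum was 1908 and 1676 FPKM in MIA PaCa-2, and 1193 and 1187 FPKM in PSN-1. ANXA1 was its largest part in MIA PaCa-2 (52.1% and 43.8%) and ANXA2 in PSN-1 (39.0% and 41.4%).

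The 17 S100 genes on chromosome 1 lie between positions 151982915 and 153632039 (GRCh38) and fell into silent and expressed stretches. At one end S100A10 and S100A11 were both above 100 FPKM in all 4 libraries. S100A11 ends at position 152047907, and the next S100 gene, S100A9, starts only at 153357854. After that gap come S100A9, S100A12, S100A8, S100A7A, S100A7L2 and S100A7, the genes of calgranulins and psoriasins that neutrophils and inflamed skin make. These 6 were listed at 0 in every library, apart from S100A9 at 0.167 and S100A7 at 0.264 FPKM in the PSN-1 mimic library. Each of those values is worth about 1 fragment. S100A7 and S100A7A are near copies of each other, so any fragments of theirs may be shared. The remaining 9 genes, from S100A6 to S100A1, all had signal in all 4 libraries, although S100A14 and S100A1 stayed close to or under 1 FPKM. The 15 cornified envelope genes examined beside them, which belong to the same region and to skin differentiation, did not exceed 0.293 FPKM.

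**Figure D1:**
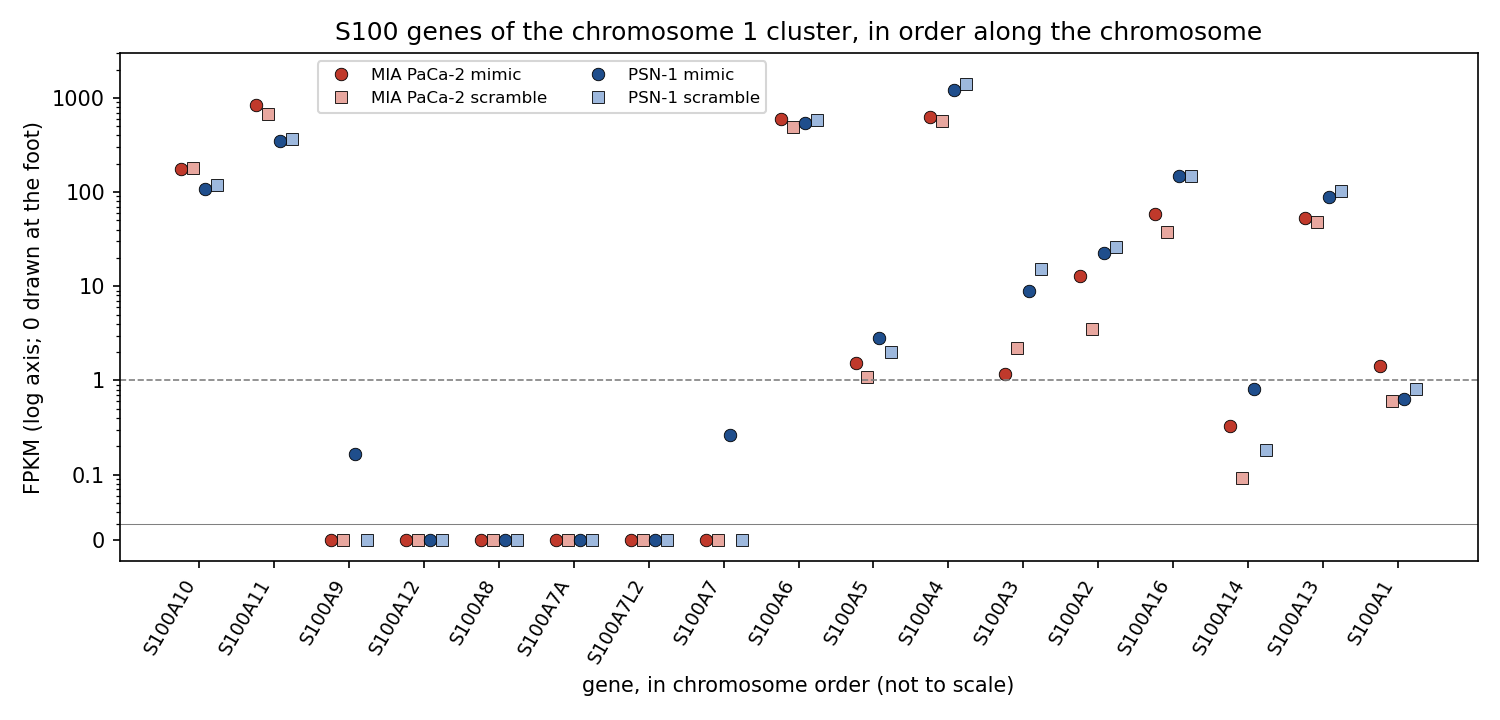
FPKM on a log axis for the 17 S100 genes of the chromosome 1 cluster, in chromosome order, with 1 point for each library and values of 0 at the foot; the dashed line is 1 FPKM. S100A10 and S100A11 stand above 100 FPKM, the next 6 genes are at or near 0, and the levels from S100A6 to S100A1 range from under 1 FPKM to 1420 FPKM.

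The silent members included the markers of other cell types in this family. S100A8, S100A12 and S100B, which mark myeloid cells and, for S100B, glial, Schwann and melanocytic cells, were listed at 0 in all 4 libraries. Of 8 myeloid and leukocyte markers, 2 reached 1 FPKM in any library, CD14 and LYZ in PSN-1. The list summed to 1.31 and 1.16 FPKM in MIA PaCa-2 and to 6 and 8.9 FPKM in PSN-1, and MPO was listed at 0. None of 6 Schwann cell and melanocyte markers reached 1 FPKM. Epithelial markers went both ways between the lines, and 7 of 8 reached 1 FPKM in a library. Mimic first, KRT8 was at 737 and 923 FPKM in MIA PaCa-2 and at 537 and 665 in PSN-1. KRT18 was at 718 and 653 against 556 and 495 FPKM, and KRT19 at 178 and 131 against 78.2 and 92.3. KRT7 was listed at 0 in MIA PaCa-2 and was at 287 and 406 FPKM in PSN-1. CDH1, the E-cadherin gene, did not exceed 1.51 FPKM in any library. EPCAM was at 28.4 and 24.1 FPKM in PSN-1 and at 0.139 and 0.104 FPKM in MIA PaCa-2.

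Upstream of the transcription start, TATA box letters were frequent in these genes. RefSeq (GRCh38.p14) gave 46 start windows for 32 members, of 250 bases before the start. ANXA13, ANXA8, S100A7L2 and S100B had no entry. The letters TATAAA, on either strand, were found in 15 of 46 windows (32.6%), against 10.7% of all 35116 windows. They began 25 to 35 bases before the start, on the gene's own strand, in 11 of the 46 (23.9%), against 2.17% of all windows. That distance was chosen after the members' positions were seen. GGGCGG (GC box) was found in 34.8% of the members' windows against 42.6% of all, CCAAT in 23.9% against 32.0%, and TGANTCA (AP-1) in 13.0% against 6.57%, each on both strands. The motifs were searched separately, so they may overlap, and members with several starts give several windows that can overlap. The 5 stretches of 30 bases below belong to genes with 1 listed start whose level differed between the lines, with the TATA letters in capitals; the first 3 lie on the plus strand and the last 2 on the minus strand.
S100P: atgaggctgcctTATAAAgcaccaagaggc
ANXA10: ctgataactaagTATAAAtacagtatctca
ANXA1: cctttaaaatccTATAAAatcagaagccca
ANXA2: ggatgtggcgggTATAAAagccccacccag
S100A4: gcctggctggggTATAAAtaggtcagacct

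The S100P stretch lies at chr4:6693838-6693867, that of ANXA10 at chr4:168092496-168092525 and that of ANXA1 at chr9:73151822-73151851. Those of ANXA2 and S100A4 lie at chr15:60398000-60398029 and chr1:153545820-153545849. The letters begin 28, 29 and 31 bases before the start in S100P, ANXA10 and ANXA1, and 31 bases before it in both ANXA2 and S100A4. The same letters stood 28 or 29 bases before the start of S100A7, S100A7A and S100A9, which were listed at or near 0, so having them did not separate expressed from silent members.

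The lines differed in most of these genes. Of the 21 members that averaged 1 FPKM or more across all libraries, 9 were higher and 4 lower in PSN-1 than in MIA PaCa-2 at an adjusted p under 0.05 (limma on log2 of FPKM + 1, oligonucleotide as a block, Benjamini-Hochberg over all 12423 genes). The background was high: 29.2% of all genes were called higher and 27.3% lower, 56.4% in all, so 13 of 21 (61.9%) is close to what the lines showed throughout. Without adjustment, 15 of 21 had a p under 0.05, against 62.2% of all genes in limma. S100P and ANXA10, among those called higher, passed the filter through their PSN-1 values alone, as did some genes of the background. The median difference of the members was 0.36, against 0.015 over all genes. The spread in this test is that between 2 libraries of a line that had received different oligonucleotides, with 1 residual degree of freedom. No source says whether they came from separate cultures. In bulk RNA, fewer cells with a transcript and less of it per cell cannot be told apart.

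S100P and ANXA10 were the sharpest contrasts. S100P, a secreted and cytoplasmic S100 protein that binds ezrin and AGER, was at 57.5 FPKM in the PSN-1 mimic library and 58.7 in the PSN-1 scramble library, and was listed at 0 in both MIA PaCa-2 libraries. On the log2(FPKM + 1) scale the difference was 5.89 (SE 0.153, adjusted p = 7.28e-05 in limma). ANXA10, a gastric-type annexin, was at 23.3 and 28.2 FPKM in PSN-1 and listed at 0 in MIA PaCa-2 (difference 4.74, SE 0.174, adjusted p = 0.000101 in limma). Against values of 0 these differences depend on the added 1 and no fold is given. Both genes entered the fit through PSN-1 alone, so their p-values add no support beyond the values themselves. ANXA3 showed the same presence in PSN-1 only, at 2.26 FPKM in the mimic library and 1.56 in the scramble library, about 24.5 and 13.4 fragments. Its mean over the 4 libraries was too low for the fit.

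S100A4, a protein of motile cells that binds non-muscle myosin, was at 1206 and 1420 FPKM in PSN-1 (mimic and scramble) and at 635 and 569 FPKM in MIA PaCa-2. Both PSN-1 values exceeded both MIA PaCa-2 values, and the ratio of the line means was 2.18 (log2 difference 1.12, SE 0.107, adjusted p = 0.00103 in limma). In the PSN-1 scramble library it ranked 42 among all symbols by FPKM. S100A6 (calcyclin), which lies in the same stretch of the cluster, was at 543 and 583 FPKM in PSN-1 and at 597 and 497 in MIA PaCa-2, so the lines overlapped. Its difference was 0.046, with a 95% interval of -0.23 to 0.32.

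Of the other cluster genes, S100A16 was at 147 and 150 FPKM in PSN-1 and at 58.7 and 38.0 FPKM in MIA PaCa-2, mimic first (log2 difference 1.63, SE 0.174, adjusted p = 0.00147 in limma). S100A13, a partner in the release of growth factors without a signal peptide, was at 89.5 and 103 FPKM against 53.5 and 48.2 (difference 0.91, SE 0.131). S100A13 and S100A1 overlap in exons on opposite strands, and since the strand setting of the counting is not given, fragments of S100A13 may count in S100A1.

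S100A3 was the most unequal of the genes expressed in both lines, at 8.88 and 15.2 FPKM in PSN-1 and at 1.18 and 2.2 in MIA PaCa-2 (ratio of means 7.12, log2 difference 2.26, SE 0.165). It lies within the span of S100A4 on the same strand. S100A2, a tumour-associated and p53-responsive S100 gene, was at 22.5 and 26.4 FPKM in PSN-1, while the MIA PaCa-2 libraries were far apart, at 12.9 with the mimic and 3.52 with the scramble. Its line difference of 1.68 (SE 0.433, adjusted p = 0.024 in limma) was 2.60 between scramble libraries and 0.75 between mimic libraries, and it was not called without a filter on low values (adjusted p = 0.061). S100A5 was at 2.84 and 2.02 against 1.52 and 1.08 FPKM and lay at the threshold (adjusted p = 0.0498 in limma). It was not called without the block (0.0664) or without the filter (0.0698).

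S100A11, S100A10, ANXA1 and ANXA2 were lower in PSN-1, both partners of each S100 and annexin pair. ANXA1, the glucocorticoid-induced annexin that signals through formyl peptide receptors, was at 241 and 176 FPKM in PSN-1 and at 995 and 734 in MIA PaCa-2. The ratio of means was 4.14 in favour of MIA PaCa-2 (log2 difference -2.05, SE 0.0726, adjusted p = 0.000101 in limma). Its partner S100A11 was at 350 and 367 FPKM in PSN-1 against 849 and 681 (difference -1.08, SE 0.110). The FPKM of S100A11 divided by that of ANXA1 was 0.854 and 0.928 in MIA PaCa-2, and 1.45 and 2.09 in PSN-1, mimic first.

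S100A10 (p11) and ANXA2 form a heterotetramer at the membrane that binds plasminogen and its activator. S100A10 was at 109 and 119 FPKM in PSN-1 and at 174 and 181 in MIA PaCa-2, with no overlap (log2 difference -0.64, SE 0.0927, adjusted p = 0.00374 in limma). ANXA2 was at 466 and 491 against 585 and 602 FPKM (difference -0.31, SE 0.0692, adjusted p = 0.0151), and it was not called when limma was fitted without the trend (0.117). The FPKM ratio of S100A10 to ANXA2 stayed between 0.234 and 0.301 over the 4 libraries. The 3 ANXA2 pseudogenes were at most 0.213 FPKM in any library, so little of the ANXA2 signal was assigned to these copies.

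Among the remaining annexins, ANXA5, which binds exposed phosphatidylserine, was the only one besides ANXA10 called higher in PSN-1. It was at 212 and 202 FPKM against 88.5 and 84.9 in MIA PaCa-2 (log2 difference 1.25, SE 0.0926, adjusted p = 0.000495 in limma). ANXA4 (42.5 and 52.4 against 35.6 and 37.7 FPKM) and ANXA9 (2.01 and 1.90 against 0.996 and 1.07 FPKM) were not called, at adjusted p = 0.0605 and 0.0638 in limma. ANXA6, which links membranes to the actin skeleton, was at 54.9 and 53.4 FPKM in PSN-1 and at 48 and 48.3 in MIA PaCa-2. ANXA7 (synexin) was at 62.1 and 60.6 against 60.5 and 52 FPKM. ANXA6, ANXA7 and ANXA11 had differences of 0.17, 0.13 and -0.055, with 95% intervals that together ran from -0.32 to 0.45. Of the binding proteins, S100PBP was at 13.2 and 15.1 against 13.6 and 16.8 FPKM, and ANXA2R at 1 and 1.26 against 0.924 and 2.14, and neither was called between the lines. ANXA13, ANXA8 and ANXA8L1 stayed at or under 0.375 FPKM in all libraries; the last 2 are near copies, and fragments can be split between them.

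**Figure D2:**
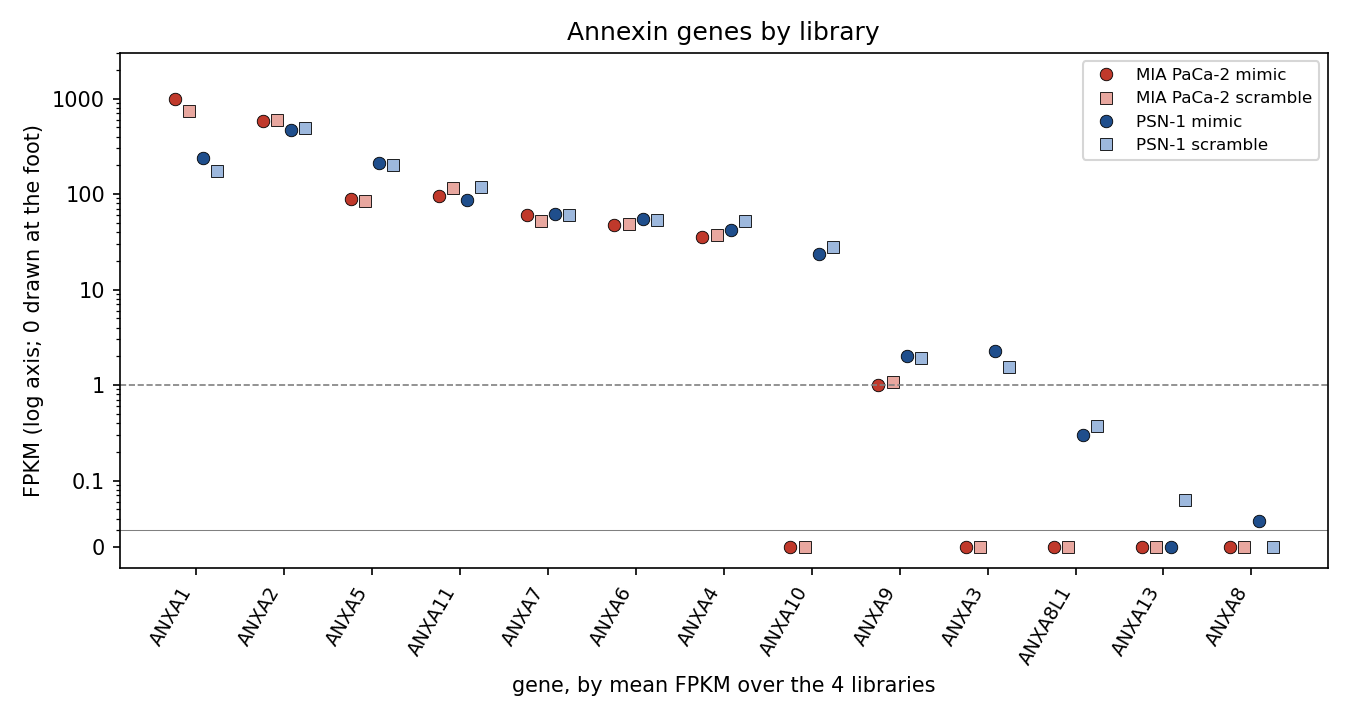
FPKM on a log axis for the 13 annexin genes, ordered by mean level, with 1 point for each library and values of 0 at the foot. ANXA1 is higher in both MIA PaCa-2 libraries and ANXA5 in both PSN-1 libraries, and ANXA10 and ANXA3 have values above 0 in PSN-1 alone.

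**Figure D3:**
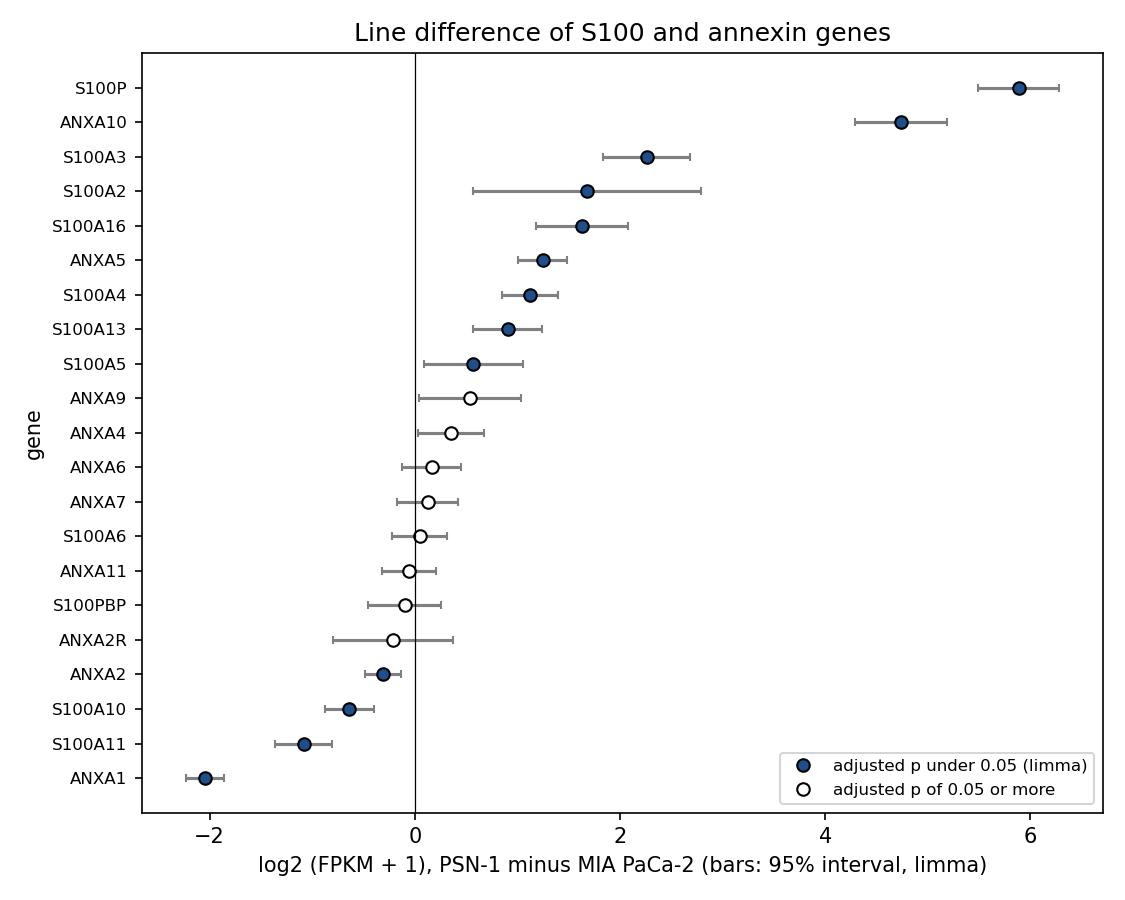
Difference of log2(FPKM + 1) between PSN-1 and MIA PaCa-2 for the 21 members in the fit, with 95% intervals from limma; filled points have an adjusted p under 0.05. S100P and ANXA10 lie farthest to the right, ANXA1 farthest to the left, and the interval of S100A2 is the widest.

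Markers of other cell types also differed between the lines. The 7 fibroblast and stellate cell markers summed to 67.3 and 84.9 FPKM in MIA PaCa-2 and to 80.6 and 99.1 in PSN-1, from different genes: COL1A2 led in MIA PaCa-2 (59.9 and 76.8 FPKM), and COL3A1 in PSN-1 (36.1 and 45.6). The 4 endothelial markers summed to at most 0.0273 FPKM in MIA PaCa-2 and to 7.99 and 7.16 FPKM in PSN-1, mostly KDR (6.5 and 5.43). The 6 keratinocyte markers summed to 119 and 89.8 FPKM in MIA PaCa-2, almost all TP63 (116 and 87.4), and to 7.06 and 5.97 FPKM in PSN-1, while KRT1 was listed at 0. The part of these markers in the line differences was not tested.

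With the mimic, most of these genes were within 1.5-fold of the scramble in each line. In MIA PaCa-2, 4 of 20 measured members were past 1.5-fold on the log2(FPKM + 1) scale, 3 higher and 1 lower, against 9.49% of all 11484 genes (5.43% higher and 4.06% lower). S100A2 alone was past 2-fold, and it was higher, against 2.12% of all genes (1.31% higher and 0.81% lower). In PSN-1, 1 of 22 was past 1.5-fold, S100A3, which was lower, against 7.04% of all 12233 genes (3.17% higher and 3.87% lower). None was past 2-fold there, against 1.63% (0.85% higher and 0.777% lower). The median change of the members was 0.10 in MIA PaCa-2 (all genes 0.014) and -0.089 in PSN-1 (all genes -0.016).

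S100A2 in MIA PaCa-2 was the farthest from 0. Its level was 12.9 FPKM in the mimic library and 3.52 in the scramble library, a log2 change of 1.63 and an FPKM ratio of 3.68. The values stand for about 78.4 and 19.0 fragments, which gives the ratio a 95% interval of 2.23 to 6.07 from counting error alone. In PSN-1, S100A2 was at 22.5 against 26.4 FPKM (-0.22). Over both lines the mean change was 0.70 (SE 0.411), not called (adjusted p = 0.651 in limma).

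The other 3 members past 1.5-fold in MIA PaCa-2 differed widely in depth. S100A16, whose product is found in many tissues, was at 58.7 against 38.0 FPKM (0.61), and its ratio of 1.54 had a counting interval of 1.37 to 1.75. In PSN-1 it was at 147 against 150 FPKM. S100A1, a heart and muscle S100 gene, was at 1.43 against 0.602 FPKM (0.60), about 7.30 and 2.74 fragments, so its counting interval for the ratio ran from 0.594 to 9.56. ANXA2R, the gene of an annexin A2 receptor, had 0.924 FPKM in the MIA PaCa-2 mimic library and 2.14 in its scramble (-0.71), about 20.4 and 42.2 fragments, and at 1 against 1.26 FPKM in PSN-1. In PSN-1 the mimic to scramble ratio of ANXA2R, S100A1, S100Z and ANXA8L1 was within 0.5% of 0.792, the ratio of the estimated depths, as an equal number of fragments in both libraries would give.

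S100A3, which is best known from the hair cuticle, was lower with the mimic in both lines. In PSN-1 it was at 8.88 against 15.2 FPKM (log2 change -0.71), with a counting interval of 0.433 to 0.791 for the ratio. In MIA PaCa-2 it was at 1.18 against 2.2 FPKM (-0.55), where the interval of 0.231 to 1.24 includes 1. The mean change was -0.63 (SE 0.171, unadjusted p = 0.0108, adjusted p = 0.341 in limma).

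ANXA1 was higher with the mimic by a like amount in both lines. The mimic libraries were at 995 (MIA PaCa-2) and 241 FPKM (PSN-1), and their scramble libraries at 734 and 176, log2 changes of 0.44 and 0.46. The counting intervals of the 2 ratios were 1.32 to 1.39 and 1.30 to 1.45. The mean change was 0.45 (SE 0.0751), with an unadjusted p of 0.00117 and an adjusted p of 0.174 in limma, which was the lowest among these genes and not past the threshold. Fitted without the trend, limma gave an SE of 0.132 and an adjusted p of 0.46. With median-ratio factors from genes averaging 1 FPKM or more, the adjusted p in limma was 0.0819.

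In the fit of the effect shared by both lines (limma, cell line as a block, 1 residual degree of freedom), 0 of 19 members were called, where 7 of 10678 genes (0.0656%) were, 0.0562% higher and 0.00937% lower. Before adjustment, 3 of 19 had a p under 0.05, ANXA1, ANXA11 and S100A3, against 9.93% of all genes. ANXA2 had a mean change of -0.059 (95% interval -0.24 to 0.12), and S100A4 of -0.037 (-0.29 to 0.22). S100A10 was at -0.086 and S100A11 at 0.13. For S100P, measured in PSN-1 alone, the values of 57.5 and 58.7 FPKM gave a change of -0.029, and for ANXA10 the change was -0.26.

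The measured S100 genes were mostly higher with the mimic in MIA PaCa-2 and mostly lower in PSN-1. In MIA PaCa-2, 8 of 10 measured S100 genes were above 0 (median 0.27), while in PSN-1 9 of 10 were below 0 (median -0.11). The sets differ, as S100A1 was measured in MIA PaCa-2 alone and S100P in PSN-1 alone. S100A3 and S100A10 were lower in both lines, and S100A5 was higher in both. For the genes in these counts, the counts were equal under each scaling tried. Scaling changes all genes of a library by the same factor, so this is no separate support. TPM scaling brought the measured members in PSN-1 to 24, and those that entered were left out of these counts. Over all genes, 47.8% and 52.4% were below 0. Among the abundant S100 genes, S100A4 had 635 FPKM (mimic) and 569 (scramble) in MIA PaCa-2 (0.16), but 1206 and 1420 in PSN-1 (-0.23). S100A6 had log2 changes of 0.26 and -0.10, while S100A10 was lower with the mimic in both lines (-0.052 and -0.12). Of 19 members measured in both lines, 6 were higher in MIA PaCa-2 and lower in PSN-1 (31.6%, against 24.3% of 10678 genes) and 2 the other way round. Opposite signs were as frequent over all genes as among these members (44.2% against 42.1%). The annexins did not share this pattern, with 3 of 8 above 0 in MIA PaCa-2 (median -0.024) and 6 of 10 in PSN-1 (0.037; -0.020 with a filter of 5 FPKM). The difference between the lines was not tested, as 1 pair of libraries in each leaves no spread for it.

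**Figure D4:**
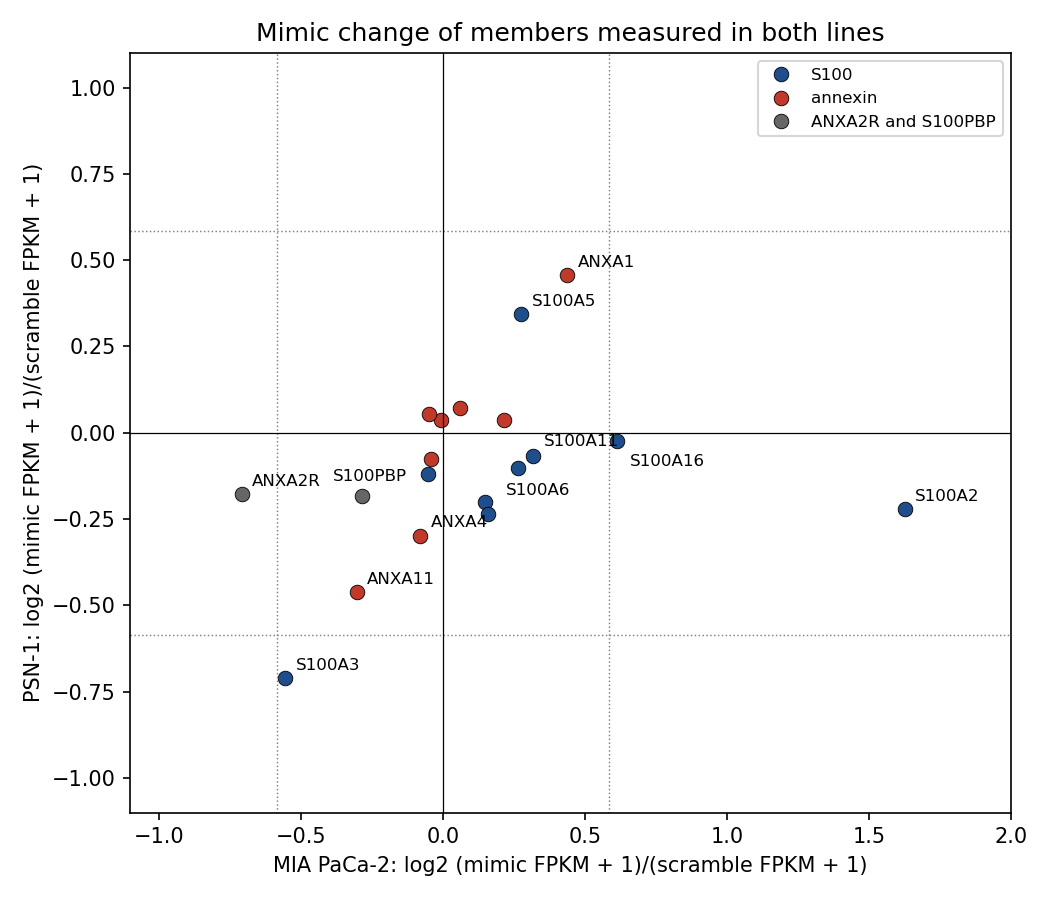
Log2 change with the mimic in MIA PaCa-2 (horizontal) and PSN-1 (vertical) for the 19 members measured in both lines, coloured by family; dotted lines mark 1.5-fold. S100A2 stands alone on the right, ANXA1 is at 0.44 and 0.46, and S100A3 is the lowest in PSN-1.

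The genes that work with these families were read from lists. None of their measured genes was called for the shared mimic effect in limma (0 of 3 S100 receptors and surface partners, 0 of 14 intracellular S100 partners, 0 of 7 annexin partners and plasminogen genes, 0 of 13 other EF-hand genes). In the plasminogen list 3 of 7 were past 1.5-fold higher and 1 lower in MIA PaCa-2, and 0 of 9 were higher and 4 lower in PSN-1. Over all genes the shares were 5.43% and 4.06% in the first line, 3.17% and 3.87% in the second. PLAU, the urokinase gene, had 669 (mimic) and 315 FPKM (scramble) in MIA PaCa-2, and 325 and 277 for PSN-1. Its receptor gene PLAUR was at 71.6 against 38.1 and 120 against 92.0 FPKM.

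Of 14 intracellular S100 partners, 1 in each line was past 1.5-fold lower and none higher. CACYBP, the calcyclin-binding protein gene, had 35.8 FPKM against 55.9 for MIA PaCa-2 (-0.63) and was at 24 against 35.6 in PSN-1 (-0.55). AHNAK, a scaffold that binds the S100A10 and annexin A2 complex, was at 46.2 against 74.8 FPKM in PSN-1 (-0.68) and at 90.1 against 86.2 in MIA PaCa-2. CAPZA1, of the actin capping protein, was at 0.52 and 0.40. Of the receptors, AGER and TLR4 were past 1.5-fold lower in PSN-1 at low levels (2.27 against 4.23 and 2.43 against 6.41 FPKM). The other EF-hand genes had 1 of 13 and 1 of 16 past 1.5-fold lower and none higher; EFHD2 had 7.38 FPKM against 13.3 for MIA PaCa-2 and 21.2 against 43.8 for PSN-1.

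Between the lines, the S100 receptor list had 4 of 5 genes higher in PSN-1 and 0 lower in limma, AGER, TLR4, NPTN and ALCAM. ALCAM was at 17.2 FPKM in both PSN-1 libraries. TLR4 and ALCAM were listed at 0 in MIA PaCa-2, so both entered the fit through their PSN-1 values alone. The intracellular partners had 4 of 14 higher and 4 lower, the annexin partners and plasminogen genes 5 of 9 higher and 1 lower, and the other EF-hand genes 9 of 16 higher and 2 lower. These counts stand against 29.2% of all genes higher and 27.3% lower. Some genes of the other lists also averaged under 1 FPKM in MIA PaCa-2 and passed the filter through PSN-1. For such genes the filter favours a call of higher in PSN-1, so the call is no separate support. For the annexin A1 receptors FPR1, FPR2 and FPR3, no library was above 0.283 FPKM.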

How the data were processed

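Libraries were made from total RNA with a stranded TruSeq mRNA kit, per the labels' protocols. Per the file headers, each deposited file lists 1 FPKM value for each symbol. TopHat2 2.1.1, Cuffdiff 2.2.1 and hg19 are named in the submitters' processing notes with no role; no source used here gives the annotation, the strand setting or any scaling. Groups came from the sample titles.

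Each change is a difference of log2(FPKM + 1), a pseudocount that understates changes of low genes, among genes averaging 1 FPKM or more in that line. The shared mimic effect (genes averaging 1 FPKM or more in each line) and the line difference (over the 4 libraries) came from limma 3.58.1 (lmFit, then eBayes with trend; R 4.3.3), two-sided, adjusted over all genes fitted. The pairing is by cell line, since the labels carry no replicate numbers. The fits were also run on simulated data with 1 common spread for all genes and 200 of the more abundant genes changed. Of those changed 2-fold or 4-fold, 100% were called, with 5 unchanged genes called in each fit. In the real fits the SE differed between genes, so this does not give their power here. Depth was estimated from fragment steps in single-transcript genes of GENCODE 29, assuming 200-base fragments and the median coding transcript length; counting errors from it are estimates. Python 3.11.15, numpy 2.4.6 and pandas 2.3.3 were used.

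Members and lists were chosen with earlier results of these data known. All members of at least 1 FPKM in a line or over the 4 libraries were named; of each functional list, the 3 largest changes at 5 FPKM could be. Cell type markers, AGER, TLR4 and the formyl peptide receptors were named outside that rule, after their values were seen. The values of 1 gene of the plasminogen list are not reported here.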

Additional observations from a re-analysis of the deposited data

Results flagged for a closer look

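In 3 genes the mimic change had opposite signs in the 2 lines, with the changes more than 1.5-fold apart. These are single pairs of libraries, and the difference was not tested. For S100A2 the changes were 1.63 (MIA PaCa-2) and -0.22 (PSN-1), a difference of 1.85 on the log2 scale. S100A1 was at 0.60 and -0.14 (difference 0.74), from about 7.30 and 2.74 fragments in MIA PaCa-2 and about 3.65 in each PSN-1 library. S100A16 was at 0.61 and -0.02 (difference 0.64).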

How the results depend on the processing

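The settings were a pseudocount of 0.1, a filter of 5 FPKM, no filter, median-ratio scaling (factors from genes above 0 in all libraries), TPM scaling, limma without trend, limma without the block, and pseudogenes added to their gene. Median-ratio factors from genes averaging 1 FPKM or more were added after seeing the data. Of the summary values under these settings, 85 stayed within 1.5 times the reported count (or within 0.1 for a median) and 7 did not. Among the former, members called higher in PSN-1 went from 9 to 8 with the 5 FPKM filter, 10 without trend, 10 with the added factors and 12 with TPM scaling, and those called lower from 4 to 3 without trend. Members higher past 1.5-fold in MIA PaCa-2 went from 3 to 2 with the 5 FPKM filter and with TPM scaling, where the log2 change of S100A16 was 0.58. The median change went from 0.10 to 0.060 in MIA PaCa-2 with TPM scaling, and from -0.089 to -0.027 in PSN-1 without a filter. The limit of 0.1 is about as large as these medians, so it is a loose one. The 85 also include counts for the shared mimic effect that stayed at 0. In MIA PaCa-2, genes lower past 1.5-fold went from 1 to 2 with the pseudocount of 0.1, to 0 with the 5 FPKM filter and to 2 with TPM scaling; genes past 2-fold went from 1 to 3 with the pseudocount of 0.1; the median change went to 0.0 without a filter, where all 36 members entered. In PSN-1, genes higher past 1.5-fold went from 0 to 1 without a filter and with TPM scaling. For the mean mimic change, ANXA9 turned from 0.0016 to -0.0065 with the pseudocount of 0.1 and to -0.018 with TPM scaling, where ANXA6 turned from 0.015 to -0.0085. The cause was not tested. TPM scaling also raises all values against the fixed pseudocount and filter.

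Without the replicate block of cell line, 0 members were called for the mimic effect in limma and 0 at an unadjusted p under 0.05, against 0 and 3 with it; over all genes, 28 were higher and 26 lower at that unadjusted p. Without the block of oligonucleotide, 9 members were higher and 4 lower between the lines, the same counts as with it. Over all genes, the limma calls of the mimic effect were 6 higher and 1 lower, and the same with median-ratio scaling, but 27 and 21 with the added factors, 13 and 10 with TPM scaling, 6 and 0 without trend, 6 and 2 with the 5 FPKM filter, and 0 and 0 without a filter (559 and 557 at an unadjusted p under 0.05). None of these calls was a member under any setting. ANXA4 and ANXA9 were called higher in PSN-1 with TPM scaling (adjusted p = 0.0372 and 0.0438 in limma), ANXA4 also with the added factors (0.0442), and ANXA9 also without trend (0.0302) and without the block (0.0332). Depth limits the members at a few FPKM or less, such as S100A1, S100A3 in MIA PaCa-2, S100A5, S100A14 and ANXA3, and the counting intervals leave out any error between cultures.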
